A study of Rattus norvegicus with 138 samples.

Results

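Gene expression in the caudal ventrolateral medulla (CVLM) was compared at 8 wk of age between rats of the spontaneously hypertensive strain (SHRs) and of the normotensive Wistar-Kyoto strain (WKY rats), an age at which SHRs are regarded as prehypertensive. The members were the 10 CVLM libraries of that age, 5 from SHRs and 5 from WKY rats, and they were chosen by the region, strain and age in the name of each library. The other 128 libraries of the series came from the CVLM at 10, 12, 16 and 24 wk (36 libraries) and from 2 further regions at all 5 ages, the solitary tract nucleus (NTS) and the rostral ventrolateral medulla (RVLM). All rats were female, of the inbred strains SHR/NHsd and WKY/NHsd, and received no drug or surgery that the labels name. The strains differ at many places in the genome, so a difference between them is a difference between 2 inbred backgrounds and not the effect of a single allele. The tissue was punched bilaterally from frozen brainstem sections and pooled within a rat, and total RNA of the whole punch was sent for sequencing.

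The CVLM holds inhibitory neurons that receive baroreceptor input relayed by the NTS and that release GABA onto the presympathetic neurons of the RVLM. Through this link a rise in arterial pressure lowers sympathetic outflow. The ventrolateral medulla also holds catecholamine neurons of the A1 and C1 groups, which make noradrenaline and adrenaline, and it is surrounded by myelinated tracts, glia and vessels that enter a punch.

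A feature of the library names bears on every result. Each name ends in 1 or 2, and what this number stands for is not given in the sources used here. All 5 SHR libraries and WKY replicates 1 and 2 ended in 1, whereas WKY replicates 3, 4 and 5 ended in 2, so that strain and number overlapped but could be partly separated within the WKY rats. Results are therefore also read against the 2 number-1 WKY libraries alone. WKY replicate 5 and SHR replicate 5 also carried an age of 10 wk in one label and 8 wk in the library name and title. They were kept at 8 wk. Library totals ranged from 5904570 to 10680296 counts in SHRs and from 9738913 to 14425223 in WKY rats. The share of counts in genes of the cytosolic ribosome was 0.689% to 0.795% in SHRs and 0.670% to 0.818% in the number-1 WKY libraries, but 0.474% to 0.570% in the number-2 WKY libraries. The first principal component held 44.5% of the variance of the 10 libraries and the second 18.3%.

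The punches held transcripts of catecholamine, glutamate and glycine neurons, and the genes that define these classes differed between strains by less than the test could resolve. Tyrosine hydroxylase (Th), the first enzyme of catecholamine synthesis, was at 114 ± 20.2 counts per 1000000 (CPM; mean ± SD, n = 5 here and wherever a CPM value is followed by ±) in SHRs and 154 ± 18.8 in WKY rats. Dopamine beta-hydroxylase (Dbh) was at 77.2 ± 7.99 and 82.8 ± 15.9 CPM, and Pnmt, the adrenaline-forming enzyme, at 47.7 ± 8.02 and 52.0 ± 15.5 CPM. The glutamate transporter Slc17a6 was at 269 ± 35.0 and 292 ± 52.9 CPM, and the glycine transporter Slc6a5 at 162 ± 27.6 and 200.1 ± 54.7 CPM. In punched tissue fewer cells of a type and less RNA per cell cannot be told apart.

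Of 13408 genes tested, 189 (1.41%) differed between SHRs and WKY rats with an adjusted p of at most 0.01 and at least a 2-fold change. These are called genes below. They comprised 107 genes higher in SHRs (0.798%) and 82 lower (0.612%). At an adjusted p under 0.05 with no minimum change, the wording "passed the test" hereafter, 1025 genes (7.64%) differed, 425 higher (3.17%) and 600 lower (4.47%). All adjusted p-values are from the quasi-likelihood test of edgeR with Benjamini-Hochberg adjustment over the 13408 genes, and log2 fold changes are SHR minus WKY, given with ± their standard error (SE), whose median was 0.178. The count that passed the test rose to 1599 and 1670 without WKY replicate 1 or 2, the number-1 libraries, and fell to 571, 562 and 565 without WKY replicate 3, 4 or 5 and to 667 without SHR replicate 1. The levels of the 5 SHRs and the 5 WKY rats did not overlap for 628 genes (4.68%), and for 169 of the 189 called genes.

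Leaving the 3 number-2 WKY libraries out reduced the called genes to 102 (0.761%), 51 higher and 51 lower (0.38% each), and the genes that passed the test to 195 (1.45%), 101 higher (0.753%) and 94 lower (0.701%). With the number as a term in the model there were 140 called genes (1.04%) and 367 that passed the test (2.74%). Of the 189 called genes, 130 had an adjusted p under 0.05 also without the number-2 libraries, and 59 did not. The fit without those libraries rests on 2 WKY rats, so a lower count there can come from fewer animals as well as from the number.

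**Figure D1:**
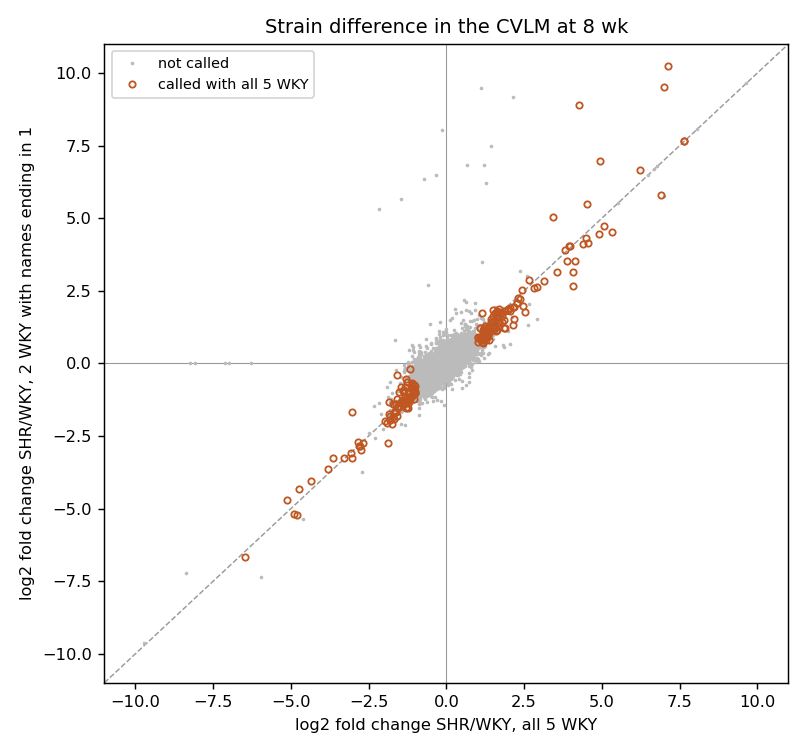
Log2 fold change of SHR against WKY in the CVLM at 8 wk for 13408 genes, with all 5 WKY libraries on the horizontal axis and with the 2 number-1 WKY libraries alone on the vertical axis; each point is a gene. Most genes with a large difference, such as Spock2 at 4.49 and 4.31, lie near the line of equality, but some leave it: Ifit1, whose number-1 WKY libraries are at 0, is farther from 0 on the vertical axis, and Pp2d1 is at -1.59 with all 5 WKY libraries and -0.41 with 2.

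Most of the called genes were called again in other rats at later ages. Of 189, 147 (77.8%) were called with the same sign at 1 or more of the 4 later ages, 86 (45.5%) at all 4, and 42 at none. At 10 wk, 128 genes were called with the same sign, which is 67.7% of the 189 genes and 81.0% of the 158 genes (1.18%) called at that age. At 24 wk the shared number was 103, or 54.5% of the 189 and 71.0% of the 145 (1.08%) called there. The 12 wk and 16 wk comparisons shared 111 of 133 (0.992%) and 113 of 134 (0.999%). The 5 ages share no rats. Of the 42 genes not called at a later age, 9 had an adjusted p under 0.05 at 8 wk without the number-2 WKY libraries, among them Eno1, Npy2r, Slc35c2, Alg1, Lin7c, Crot, Asph and Snx22. Of these 9, Npy2r and Snx22 did not pass the test with the same sign at a later age, where 3.18%, 2.62%, 2.27% and 7.13% of all genes passed at 10, 12, 16 and 24 wk. This group was picked out after the values were seen.

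Among named genes averaging 50 or more counts, the largest difference upward was in Ifit1, an interferon-induced protein that binds foreign RNA and blocks its translation. Its level was 7.83, 9.63, 14.7, 10.1 and 27.2 CPM in the 5 SHRs and 0, 0, 0.222, 0 and 0.190 CPM in the 5 WKY rats. The SHR libraries together held 667 counts and the WKY libraries 5, a depth-corrected ratio of 166 (95% interval 70.6 to 511, counting error only). Spock2, which encodes the matrix proteoglycan testican-2, was abundant in SHRs at 264, 297, 285, 243 and 260.3 CPM and was at 17.6, 10.0, 11.3, 8.72 and 12.5 CPM in WKY rats (log2 fold change 4.49 ± 0.16, adjusted p = 8.40e-25). Ephx2, the soluble epoxide hydrolase that breaks down vasodilator epoxides of arachidonic acid, was at 25.6, 20.2, 25.0, 23.0 and 21.4 CPM in SHRs and 1.47, 1.33, 1.26, 1.45 and 1.81 CPM in WKY rats (3.97 ± 0.18, adjusted p = 3.35e-21). For all 3 genes every SHR lay far above every WKY rat, and both the number-1 and the number-2 WKY libraries were low.

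Tmem94, a membrane protein, was at 39.0, 35.7, 33.2, 33.5 and 38.7 CPM in SHRs and 3.63, 2.67, 1.63, 0.969 and 1.52 CPM in WKY rats (4.13 ± 0.27, adjusted p = 1.74e-15). Genes of organelle membranes followed with narrow spreads. Pxmp4, a peroxisomal membrane protein, was at 38.5 ± 3.74 CPM in SHRs and 2.73 ± 0.512 in WKY rats (3.81 ± 0.14), and Tomm40l, a homolog of the import pore of the mitochondrial outer membrane, at 51.6 ± 6.93 and 6.90 ± 1.69 CPM (2.91 ± 0.12). Ptprn2, a receptor-type phosphatase homolog of dense-core secretory vesicles, varied more among SHRs than any of these. It was at 36.0, 125, 62.8, 95.1 and 163 CPM in SHRs and 14.8, 17.2, 15.8, 8.15 and 12.8 CPM in WKY rats (2.81 ± 0.27, adjusted p = 1.96e-10), and its lowest SHR value was still above its highest WKY value.

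Slc11a1 (Nramp1), a divalent metal transporter of phagosomes, was at 9.08 ± 1.29 CPM in SHRs and 1.67 ± 0.315 in WKY rats (2.44 ± 0.23), and Kpna6, an importin of nuclear transport, at 39.5 ± 7.88 and 8.77 ± 2.09 CPM (2.18 ± 0.26). Pbld1 was at 23.3 ± 1.94 and 3.70 ± 0.930 CPM (2.65 ± 0.15). Igfbp5, which binds insulin-like growth factors and modulates their access to receptors, was at 87.0, 107, 70.6, 105 and 78.9 CPM in SHRs and 25.8, 21.4, 19.8, 18.2 and 16.7 CPM in WKY rats (2.13 ± 0.24, adjusted p = 1.28e-08). The lowest SHR was well above the highest WKY rat. The 12th of the leading genes upward was the class I antigen-presentation gene RT1-A1, described with its family. Each of these 12 genes was called with the same sign at all 4 later ages.

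**Figure D2:**
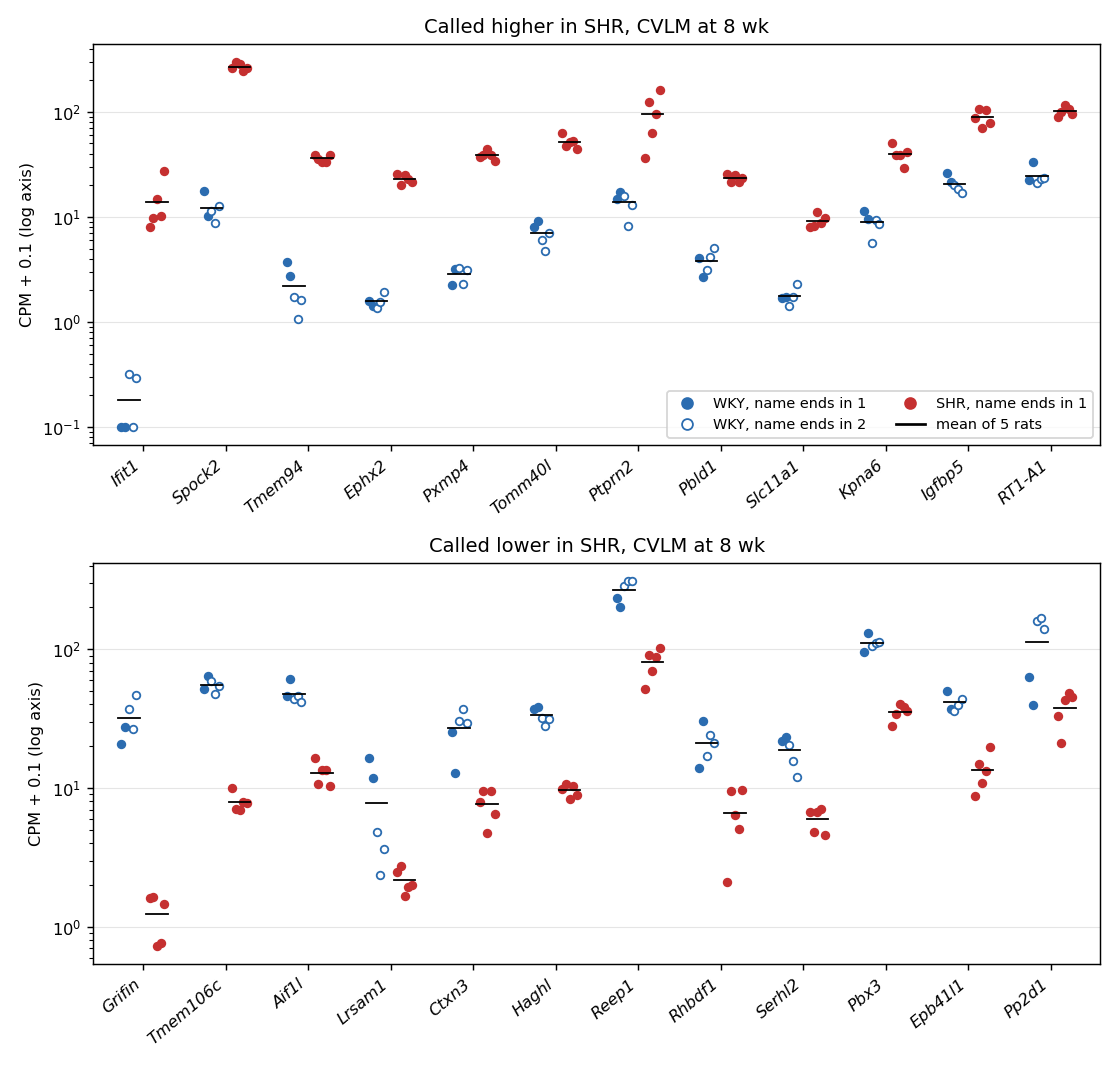
CPM plus 0.1 on a log axis in each rat at 8 wk for the 12 leading genes higher in SHRs and the 12 leading genes lower in SHRs; filled WKY points are libraries whose name ends in 1 and open WKY points those ending in 2. The strains are separated for most genes whichever WKY points are read, whereas for Pp2d1 the 2 filled WKY points, at 62.7 and 39.6 CPM, lie near the SHR points and the 3 open points lie above them.

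On the lower side the largest difference among named genes averaging 50 or more counts was in Grifin, a galectin-related protein first described between lens fibers. Its level was 1.52, 1.54, 0.631, 0.663 and 1.37 CPM in SHRs and 20.6, 27.4, 37.2, 26.3 and 46.7 CPM in WKY rats (log2 fold change -4.74 ± 0.36, adjusted p = 2.88e-13), with no overlap. Reep1, which shapes the endoplasmic reticulum in axons and is mutated in a hereditary spastic paraplegia, was at 51.9, 90.2, 69.5, 88.5 and 102 CPM in SHRs and 232, 201, 285, 310.0 and 308 CPM in WKY rats (-1.73 ± 0.13, adjusted p = 5.21e-14). Pbx3, a homeodomain factor that binds DNA with Hox proteins in the hindbrain, was at 27.8, 33.8, 40.3, 37.9 and 36.1 CPM in SHRs and 95.7, 130.2, 105, 111 and 113 CPM in WKY rats (-1.66 ± 0.11, adjusted p = 1.60e-15). Neither gene's highest SHR value reached its lowest WKY value.

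Lrsam1, a ubiquitin ligase, fell by 1.88 on the log2 scale in the fit, but its WKY levels split by number. It was at 2.40, 2.63, 1.58, 1.82 and 1.92 CPM in SHRs and 16.4, 11.7, 4.73, 2.26 and 3.52 CPM in WKY rats, so the 2 number-1 WKY libraries were far above the SHRs while replicate 4 overlapped them. Tmem106c was at 7.85 ± 1.20 CPM in SHRs and 55.2 ± 6.49 in WKY rats (-2.82 ± 0.14). Aif1l, an actin-binding relative of the microglial protein Iba1, was at 12.8 ± 2.51 and 47.7 ± 7.81 CPM (-1.90 ± 0.16). Smaller differences of the same sign were seen in Haghl (-1.80 ± 0.14), Serhl2 (-1.67 ± 0.21) and Epb41l1 (-1.61 ± 0.21), the last of which encodes the cytoskeletal linker 4.1N.

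The other 3 of the 12 lower genes moved less evenly over the ages. Pp2d1, a phosphatase homolog, was at 32.7, 21.1, 42.8, 48.2 and 44.8 CPM in SHRs and 62.7, 39.6, 159, 167 and 139 CPM in WKY rats (-1.59 ± 0.34, adjusted p = 0.0018). Against the number-1 WKY libraries alone its log2 fold change was -0.41 (adjusted p = 1.00), and at the later ages it was -0.08, 0.59, 0.07 and 0.43. Its mean level at 10 wk, where all libraries ended in 2, was 146 CPM in SHRs and 155 CPM in WKY rats. At 16 wk, where all ended in 1, it was 39.6 and 37.6 CPM. Between those ages the number and age cannot be told apart. Ctxn3 was at -1.84 with all WKY libraries and -1.33 (adjusted p = 0.39) with the number-1 libraries, and it passed the test at 0 later ages. Rhbdf1, an inactive rhomboid protease, was at -1.68 and was called at 2 of the 4 later ages. The other 9 lower genes were called at all 4.

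**Figure D3:**
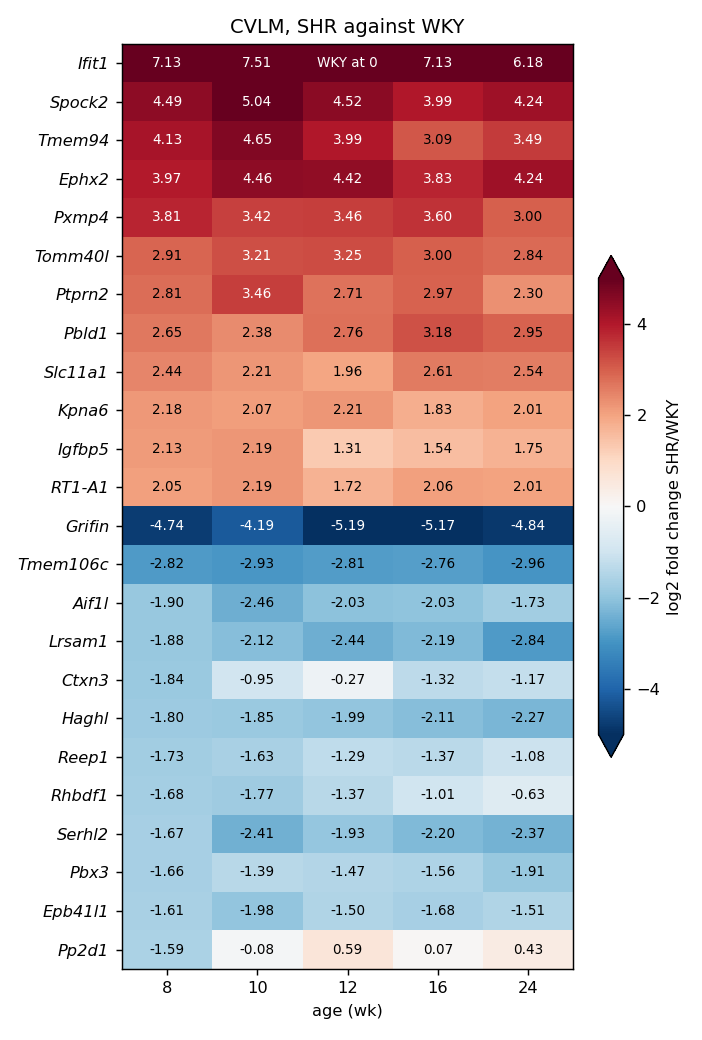
Log2 fold change of SHR against WKY in the CVLM for the 24 leading genes of 8 wk at each of 5 ages; color gives the value and sign, and one cell is marked because all WKY libraries were at 0. Of the 24 genes, 21 were called with the same sign at all 5 ages, and Pp2d1 is negative at 8 wk (-1.59) and between -0.08 and 0.59 later.

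Several loci known only by clone or provisional identifiers had differences as large. AABR07064061.1 (6.89), LOC103690108 (5.08) and LOC100911830 (4.56) were higher in SHRs. AABR07000733.1 (-5.13), AABR07052523.1 (-4.91) and RGD1563294 (-4.79) were lower. The most abundant of them, AABR07052523.1, ranged from 20.3 to 22.9 CPM in SHRs and from 538 to 797 CPM in WKY rats. For such loci it was not tested whether reads were split with other copies.

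Antigen presentation was the immune list with the most members that passed the test. Class I molecules display peptides of the cell's own proteins to T cells, tapasin (Tapbp) loads these peptides in the endoplasmic reticulum, and class II molecules display peptides taken up by microglia and other phagocytes. Of 23 genes of the list tested, 6 were higher and 2 lower, against 7.64% of all genes passing in either direction, and their median log2 fold change was 0.01 against -0.02 for all genes. Without the number-2 WKY libraries 5 were higher and 1 lower. RT1-A1 was at 88.8, 98.8, 117, 106 and 96.2 CPM in SHRs and 22.6, 33.1, 20.7, 22.8 and 23.1 CPM in WKY rats (log2 fold change 2.05 ± 0.12, adjusted p = 1.41e-17). RT1-A2 went the other way, at 3.11 ± 0.585 CPM in SHRs and 8.83 ± 2.45 in WKY rats (-1.51 ± 0.24, adjusted p = 2.16e-05). RT1 genes are near-identical copies that differ between rat strains, and reads of a haplotype absent from the reference can be assigned to another copy, so the opposite signs of RT1-A1 and RT1-A2 are uncertain as statements about either gene.

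Tapbp, which is a single gene, was at 58.5, 58.1, 54.7, 56.5 and 49.5 CPM in SHRs and 29.4, 35.2, 17.9, 16.6 and 16.7 CPM in WKY rats (1.26 ± 0.16, adjusted p = 1.15e-07). The groups did not overlap, but the number-1 WKY libraries were the 2 highest, and against them alone the log2 fold change was 0.81 (adjusted p = 0.0030). The class II genes RT1-DOb and RT1-Db1 were near the limit of detection in WKY rats, with 7 and 6 counts over the 5 libraries against 100 and 84 in SHRs, ratios of 17.7 (95% interval 8.29 to 45.2) and 17.4 (7.66 to 48.7) for counting error. Psmb8, a subunit of the immunoproteasome, was at 11.4 ± 1.76 CPM in SHRs and 5.42 ± 0.809 in WKY rats (1.07 ± 0.17). RT1-CE4 was higher (0.53 ± 0.17) and RT1-CE7 lower (-0.67 ± 0.17), with adjusted p-values of 0.38 and 0.078 without the number-2 WKY libraries.

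The 250 bases before the start of the RT1-A1, RT1-A2, Tapbp and Ifih1 genes are shown from RefSeq, build GRCr8. They are a selection made after the values were seen: RT1-A1 and RT1-A2 because these near copies had opposite signs, and Tapbp and Ifih1 because they were the genes of the 2 lists that were higher in SHRs and held a match to the motif described next. Each window is written 5′ to 3′ on the gene's strand, and capitals mark matches to GAAANNGAAA, a core of the interferon-stimulated response element, searched on both strands. The reference is of neither strain.
RT1-A1, chr20:4906959-4907208, plus strand: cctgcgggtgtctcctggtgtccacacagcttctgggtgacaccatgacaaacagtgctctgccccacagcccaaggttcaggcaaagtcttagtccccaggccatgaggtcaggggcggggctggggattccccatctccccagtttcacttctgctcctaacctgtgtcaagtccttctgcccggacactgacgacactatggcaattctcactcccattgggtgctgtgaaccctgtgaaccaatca
RT1-A2, chr20:4872621-4872870, plus strand: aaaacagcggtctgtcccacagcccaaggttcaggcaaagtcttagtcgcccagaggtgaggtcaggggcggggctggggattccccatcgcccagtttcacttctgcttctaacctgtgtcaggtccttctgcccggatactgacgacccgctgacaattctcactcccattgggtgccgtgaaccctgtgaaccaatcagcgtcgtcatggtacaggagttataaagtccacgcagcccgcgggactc
Tapbp, chr20:4967878-4968127, minus strand: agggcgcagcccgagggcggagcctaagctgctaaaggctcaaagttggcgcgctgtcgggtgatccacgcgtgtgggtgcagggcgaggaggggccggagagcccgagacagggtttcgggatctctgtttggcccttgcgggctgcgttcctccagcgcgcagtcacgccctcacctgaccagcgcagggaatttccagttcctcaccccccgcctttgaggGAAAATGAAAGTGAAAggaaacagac
Ifih1, chr3:67683969-67684218, minus strand: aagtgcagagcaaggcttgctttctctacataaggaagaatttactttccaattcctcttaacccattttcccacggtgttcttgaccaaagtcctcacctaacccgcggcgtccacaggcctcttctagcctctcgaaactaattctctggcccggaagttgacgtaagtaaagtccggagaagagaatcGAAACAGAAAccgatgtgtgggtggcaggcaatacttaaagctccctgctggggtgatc

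In these windows Tapbp held 2 overlapping matches, the first of which began 26 bases before the start. Ifih1 held 1 match that began 59 bases before its start. RT1-A1 and RT1-A2 held 0 matches to this exact pattern. The search allowed no mismatch, so a count of 0 does not show that a response element is absent from a window. Of all 33469 promoters, 3.41% held a match, and of those of genes tested, 9898 of which were matched by symbol, 2.46%. Among interferon-induced genes 16 of 25 promoters (64%) held one, and among antigen-presentation genes 6 of 21 (28.6%). Of the antigen-presentation genes higher in SHRs, 1 of 6 (16.7%) held one. Of all called genes 1 of 63 (1.59%) higher in SHRs and 3 of 53 (5.66%) lower in SHRs held one. Ifit1 had no entry among the promoters read and is not in these counts. The RT1-A1 and RT1-A2 windows aligned over 200 bases with 187 identical (93.5%), and the alignment held 100 gap columns besides. The share covers the aligned bases only. The bases nearest the RT1-A2 start had no counterpart in the RT1-A1 window.

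The interferon-induced list as a whole did not follow Ifit1. Of 33 genes tested, 3 were higher and 0 lower, against 3.17% and 4.47% of all genes. The median was -0.23, below that of all genes. Nlrx1, a mitochondrial regulator of antiviral signalling, was at 12.2 ± 2.17 CPM in SHRs and 7.55 ± 1.19 in WKY rats (0.70 ± 0.13), and Ifih1, the cytosolic sensor of double-stranded RNA, at 5.89 ± 1.01 and 3.53 ± 0.597 CPM (0.74 ± 0.22, adjusted p = 0.028). The related genes Ifit2 (-0.44 ± 0.27) and Ifit3 (-0.23 ± 0.43), did not pass. Without the number-2 WKY libraries Ifit1 alone of the list passed, and the adjusted p was 0.063 for Nlrx1 and 0.41 for Ifih1.

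Among 23 complement genes, 2 were higher and 2 lower, against 7.64% of all genes in either direction. C2, which supplies part of the C3 convertase of the classical pathway, was at 14.7 ± 2.16 CPM in SHRs and 6.29 ± 1.29 in WKY rats (1.23 ± 0.19). One of 2 annotated copies of factor B (Cfb) was at 8.21, 8.09, 4.10, 2.15 and 4.29 CPM in SHRs and 0, 0, 0, 0 and 1.43 CPM in WKY rats, that is, found in every SHR and in 1 WKY rat. The other copy did not pass. Whether reads were split between the copies was not tested, so the value of this copy is uncertain as a statement about factor B. The serine proteases C1r and C1s, which start the classical pathway, were lower (-0.86 ± 0.15 and -0.81 ± 0.19). Of these 4 genes C1r alone passed without the number-2 WKY libraries, where the adjusted p was 0.051 for C2, 0.060 for the Cfb copy and 0.83 for C1s. In the list of cytokine and Toll-like receptor signalling, 1 of 22 genes passed. This was Il33, an alarmin kept in the nuclei of oligodendrocytes and astrocytes, at 17.4, 15.2, 19.1, 17.7 and 12.9 CPM in SHRs and 23.0, 26.5, 30.3, 29.6 and 34.9 CPM in WKY rats (-0.81 ± 0.11, adjusted p = 9.28e-07). All 5 SHRs were below all 5 WKY rats, and against the number-1 WKY libraries the value was -0.56 (adjusted p = 0.023).

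**Figure D4:**
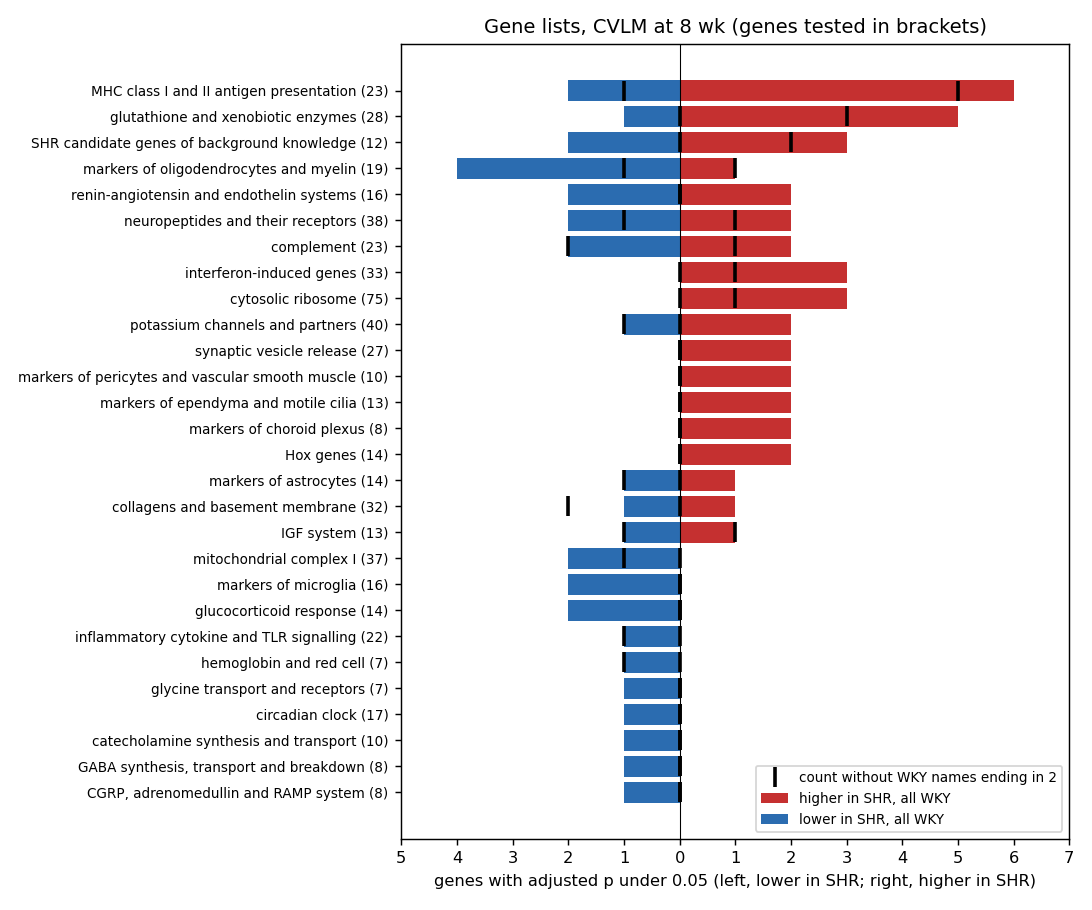
Number of members of each gene list that passed the test at an adjusted p under 0.05, higher in SHRs to the right and lower to the left, for the 28 lists with at least 1 such member; black ticks give the number without the number-2 WKY libraries. Antigen presentation had 6 genes higher and 2 lower with all libraries and 5 and 1 without the number-2 WKY libraries, whereas the angiotensin and endothelin list went from 2 and 2 to 0 and 0.

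GABA is the transmitter through which the CVLM acts on the RVLM. Of 8 genes of GABA synthesis, transport and breakdown, 1 passed, against 7.64% of all genes. Gad1, which makes most of the GABA in cell bodies, was at 153, 159.6, 169, 155 and 168 CPM in SHRs and 249, 190.1, 309, 297 and 265 CPM in WKY rats (-0.70 ± 0.14, adjusted p = 8.52e-04). All SHRs were below all WKY rats, but WKY replicate 2 was close to them, and against the number-1 WKY libraries the log2 fold change was -0.42 (adjusted p = 0.57). At 10, 12, 16 and 24 wk it was -0.24, -0.03, 0.11 and -0.01. Gad2, which makes GABA at terminals, was at -0.41 ± 0.17 (adjusted p = 0.13), and the vesicular transporter Slc32a1 at 0.30 ± 0.32 (adjusted p = 0.61). Of 14 GABA-A receptor subunits 0 passed.

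Glycine, the other fast inhibitory transmitter of the hindbrain, had 1 of 7 genes that passed, against 7.64% of all genes. Glrb, the receptor subunit that anchors glycine receptors to gephyrin, was at 285, 371, 310.3, 368 and 511 CPM in SHRs and 373, 419, 744, 959 and 830.3 CPM in WKY rats (-0.85 ± 0.23, adjusted p = 0.016). Its number-1 WKY libraries lay within the SHR range, and the number-2 WKY libraries were the 3 highest. Against the number-1 libraries the value was -0.08 (adjusted p = 1.00), and number 2 exceeded number 1 within the WKY rats by 1.09 (adjusted p = 0.036).

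Of 10 genes of catecholamine synthesis and transport 1 passed, against 7.64% of all genes. This was the breakdown enzyme Maob, at -0.35 ± 0.11 (adjusted p = 0.047), and at -0.10 (adjusted p = 1.00) without the number-2 WKY libraries. All 10 log2 fold changes were below 0, from -0.65 to -0.004. Their median was -0.20 against -0.02 for all genes, and -0.25 without the number-2 WKY libraries. The sums over the list did not overlap, at 589 to 699 CPM in SHRs and 752 to 826 CPM in WKY rats. Whether the list as a whole differed was not tested. The lists of acetylcholine synthesis (9 genes), ionotropic glutamate receptors (19), metabotropic glutamate receptors (7), glutamate transport (7), and adrenergic and cholinergic receptors (16) had 0 genes that passed. With 5 rats a strain these counts of 0 do not show that the strains are alike in those genes.

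Neuropeptides and their receptors gave 2 genes higher and 2 lower of 38 tested, a share near the 7.64% of all genes. Npy2r, the presynaptic receptor through which neuropeptide Y lowers transmitter release, was at 10.2, 7.90, 7.99, 7.46 and 5.66 CPM in SHRs and 4.03, 2.46, 3.33, 3.55 and 3.33 CPM in WKY rats (1.23 ± 0.23, adjusted p = 3.04e-04). The ranges did not overlap, the value without the number-2 WKY libraries was 1.29 (adjusted p = 0.043), and at the 4 later ages it was 0.70, 0.09, -0.13 and 0.64. Hcrtr1, a receptor for the orexins that raise arousal and sympathetic activity, was at 7.45, 8.63, 9.78, 9.78 and 8.12 CPM in SHRs and 18.5, 15.2, 10.5, 10.9 and 10.8 CPM in WKY rats (-0.59 ± 0.17, adjusted p = 0.028). Here the number-1 WKY libraries were the 2 highest, and against them the value was -0.92 (adjusted p = 0.0068).

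Tac3, the precursor of neurokinin B, was at 11 ± 3.35 CPM in SHRs and 5.45 ± 2.38 in WKY rats (1.02 ± 0.33, adjusted p = 0.046). Vip, the vasoactive intestinal peptide precursor, was at 0.632, 1.27, 1.79, 0.663 and 1.19 CPM in SHRs and 1.77, 1.85, 2.96, 11.2 and 2.09 CPM in WKY rats (-1.81 ± 0.53, adjusted p = 0.028), with WKY replicate 4 far above the rest. Neither Tac3 (0.57, adjusted p = 1.00) nor Vip (-0.63, adjusted p = 1.00) passed without the number-2 WKY libraries. Crh, the stress peptide, did not pass (-1.47 ± 0.50, adjusted p = 0.062). In the system of calcitonin gene-related peptide and adrenomedullin, 1 of 8 genes passed, against 7.64% of all genes. This was Ramp1, which turns the calcitonin receptor-like protein into a receptor for calcitonin gene-related peptide. Its level was 21.1, 39.0, 33.8, 34.0 and 35.2 CPM in SHRs and 35.7, 66.0, 57.3, 51.2 and 59.8 CPM in WKY rats (-0.73 ± 0.19, adjusted p = 0.011). Without the number-2 WKY libraries the value was -0.61 (adjusted p = 0.45). WKY replicate 1 lay within the SHR range.

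The renin-angiotensin and endothelin list gave 2 genes higher and 2 lower of 16, against 7.64% of all genes in either direction. Without the number-2 WKY libraries 0 of the list passed, against 1.45% of all genes. Agt, the angiotensinogen that astrocytes make in brain, was at 932, 885, 893, 877 and 764 CPM in SHRs and 556, 814, 453, 530.0 and 597 CPM in WKY rats (0.56 ± 0.13, adjusted p = 0.0049). WKY replicate 2, a number-1 library, lay within the SHR range and the other WKY rats lay below it, and against the number-1 libraries the value was 0.38 (adjusted p = 0.64). Mas1, the receptor of angiotensin-(1-7), was at 1.28 ± 0.34, the endothelin receptor Ednra at -0.91 ± 0.26, and Atp6ap2, the prorenin receptor and a proton pump partner, at -0.41 ± 0.12. For Atp6ap2 the value without the number-2 WKY libraries was 0.06, of the opposite sign.

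**Figure D5:**
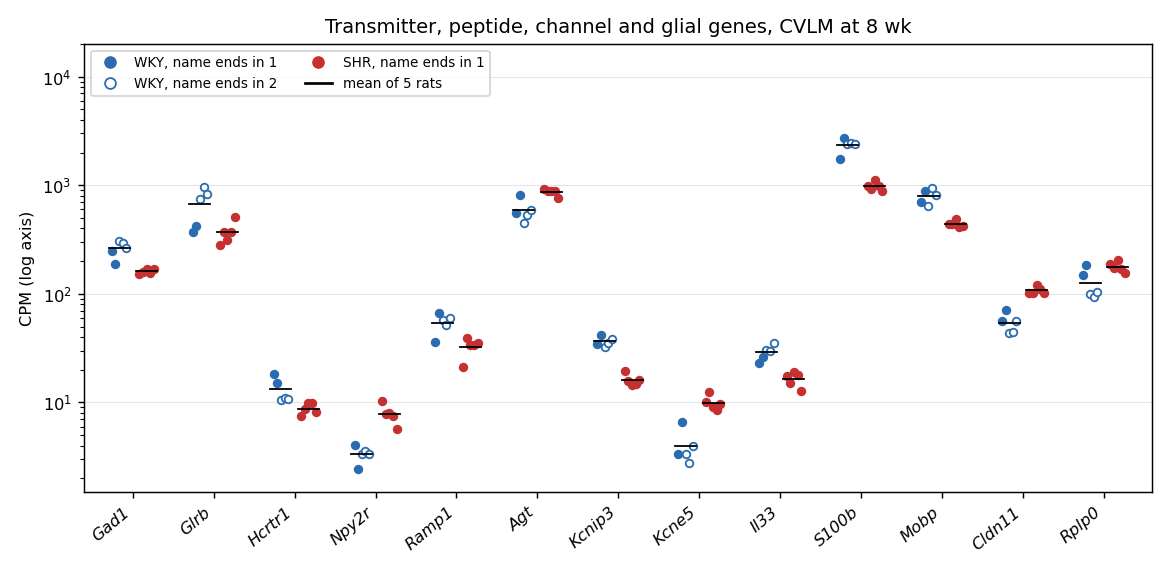
CPM on a log axis in each rat at 8 wk for 13 genes of transmitters, receptors, channels, glia and the ribosome that the text describes. Filled WKY points are libraries ending in 1 and open points those ending in 2. Kcnip3 and S100b separate the strains with both kinds of WKY library, while for Glrb the 2 filled WKY points, at 373 and 419 CPM, lie among the SHR points.

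Ion channels set the firing of these neurons. Of 40 potassium channels and their partners 2 were higher and 1 lower, a share like the 7.64% of all genes, so the list did not stand apart. The lower gene was Kcnip3, a calcium-binding partner of A-type potassium channels also known as DREAM, at 19.5, 15.6, 14.5, 14.9 and 16.0 CPM in SHRs and 34.7, 41.5, 32.3, 35.3 and 38.6 CPM in WKY rats (-1.18 ± 0.14, adjusted p = 2.66e-08). The strains did not overlap, and without the number-2 WKY libraries the value was -1.21 (adjusted p = 1.21e-05). Kcne5, an accessory subunit, was at 10.1, 12.5, 9.05, 8.45 and 9.67 CPM in SHRs and 3.34, 6.56, 3.33, 2.74 and 4.0 CPM in WKY rats (1.33 ± 0.24, adjusted p = 1.22e-04), with the closest WKY rat at 6.56. Without the number-2 WKY libraries its adjusted p was 0.12. Kcna1, a delayed-rectifier subunit of axons, was at 0.44 ± 0.14, and at 0.29 (adjusted p = 1.00) without the number-2 WKY libraries. Voltage-gated sodium channels (10 genes) and calcium and HCN channels (18) had 0 genes that passed. Of 27 genes of vesicle release 2 were higher, the fusion ATPase Nsf (0.43 ± 0.11) and the complexin Cplx2 (0.52 ± 0.16), and 0 lower, again a share like that of all genes. Neither passed without the number-2 WKY libraries (adjusted p = 0.62 and 1.00).

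Of 28 enzymes of glutathione and xenobiotic metabolism 5 were higher and 1 was lower, against 3.17% and 4.47% of all genes, and 3 and 0 passed without the number-2 WKY libraries. These 3 were Ephx2, Gstt3 and Cat. Besides Ephx2, the glutathione transferase Gstt3 was at 115 ± 8.03 CPM in SHRs and 60.2 ± 6.21 in WKY rats (0.93 ± 0.07), and Gstt1 at 0.75 ± 0.19. Catalase (Cat), which removes hydrogen peroxide, was at 199 ± 14.0 and 149 ± 12.0 CPM (0.42 ± 0.07). The superoxide dismutases passed in opposite directions, Sod1 of the cytosol at 0.43 ± 0.13 and Sod2 of the mitochondrion at -0.26 ± 0.08. In the IGF system, Igfbp5 was higher and the insulin receptor Insr lower (-1.27 ± 0.18) of 13 genes. Of 7 hemoglobin and red cell genes, Hba-a3 was lower, with 1 count over the SHR libraries and 165 over the WKY libraries, a WKY to SHR ratio of 133 (95% interval 23.5 to 5283, counting error only). The alpha-globin genes are near-identical copies, so this gene's reads could be assigned to another copy.

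Of 37 genes of mitochondrial complex I, 2 were lower, against 4.47% of all genes. Both were rows of Ndufa10l1, a near copy of a complex I subunit. The abundant one was at 191, 188, 203, 201 and 175 CPM in SHRs and 394, 394, 421, 372 and 361 CPM in WKY rats (-1.02 ± 0.07). The 2 rows share sequence and are not independent, and the other 35 genes of the complex did not pass.

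Over all genes 3.17% were higher and 4.47% lower, the shares to set beside the counts of this paragraph. Of 14 glucocorticoid-response genes 2 were lower (Errfi1 at -0.54 ± 0.17 and Sult1a1 at -0.74 ± 0.24), and of 17 clock genes 1, the core factor Arntl (-0.52 ± 0.16). None of these 3 passed without the number-2 WKY libraries (adjusted p = 1.00 for each). Of 14 Hox genes 2 were higher, Hoxb6 (1.59 ± 0.48) and Hoxc5 (0.52 ± 0.17), which pattern the hindbrain and spinal cord, and neither passed without the number-2 WKY libraries (adjusted p = 0.65 and 0.82). Of 32 collagens and basement membrane genes, fibronectin (Fn1) was lower (-1.37 ± 0.16) and the laminin Lama4 higher (0.64 ± 0.20), the latter with an adjusted p of 0.72 without the number-2 WKY libraries. Immediate early genes (12) and perineuronal net genes (11) had 0 that passed. Of 12 genes named from background knowledge as candidates in SHRs, a list written with earlier results of these data known and so no independent evidence of direction, Ephx2, Igfbp5 and Nlrx1 were higher and Ramp1 and the phosphatase Ptprj (-0.73 ± 0.23) lower. Of the 5, Ephx2 and Igfbp5 passed without the number-2 WKY libraries.

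Glial genes showed single members that stood apart from their lists. S100b, a calcium-binding protein of astrocytes, was at 994, 922, 1129, 986 and 883 CPM in SHRs and 1761, 2707, 2423, 2430.4 and 2405 CPM in WKY rats (-1.25 ± 0.11, adjusted p = 5.20e-12). Every SHR was below every WKY rat, in both kinds of WKY library. Of 14 astrocyte markers only S100b was lower and Agt higher. The summed level of the list ranged from 7029.5 to 8219 CPM in SHRs and from 7573 to 10351 CPM in WKY rats, and S100b was part of that sum. Of 19 genes of oligodendrocytes and myelin 1 was higher and 4 were lower, against 3.17% and 4.47% of all genes. Without the number-2 WKY libraries 1 was higher and 1 lower. Cldn11, the tight-junction protein of myelin, was at 101, 102, 121, 112 and 101 CPM in SHRs and 56.3, 70.3, 43.2, 44.7 and 56.5 CPM in WKY rats (0.99 ± 0.12), and Mobp, a structural protein of compact myelin, at 439, 436, 489.9, 414 and 419 CPM and 701, 889, 638, 947 and 805 CPM (-0.86 ± 0.11). Neither gene overlapped between the strains, so the list held clear members in both directions. Aspa (-0.58 ± 0.15) and Mog (-0.29 ± 0.09) were lower by less and did not pass without the number-2 WKY libraries (-0.05 and -0.05, adjusted p = 1.00 for each). The sum over the list was 53863 to 67376 CPM in SHRs and 54572 to 77811 CPM in WKY rats.

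The counts of markers that follow stand beside 3.17% of all genes higher and 4.47% lower. Of 16 microglial markers 2 were lower, the integrin Itgb2 (-0.73 ± 0.17) and Tmem119 (-0.55 ± 0.17), and the sums were 272 to 326 and 274 to 355 CPM. These ranges overlapped, and 0 microglial markers passed without the number-2 WKY libraries (adjusted p = 0.22 and 1.00). The contractile genes Tagln (1.01 ± 0.27) and Myh11 (0.83 ± 0.27) were higher of 10 markers of pericytes and vascular smooth muscle, whose sums did not overlap at 89.8 to 109.9 CPM in SHRs and 66.0 to 83.3 CPM in WKY rats. Without the number-2 WKY libraries the adjusted p was 0.74 for Tagln and 1.00 for Myh11. Of 13 endothelial and 8 leptomeningeal markers 0 passed. Of 13 markers of ependyma and motile cilia 2 were higher (Drc1 at 0.93 ± 0.25, Dnah5 at 1.07 ± 0.34), and of 8 choroid plexus markers 2 were higher (Sostdc1 at 1.83 ± 0.52, Kl at 1.5 ± 0.45). None of these 4 genes passed without the number-2 WKY libraries, with adjusted p-values of 0.99, 0.39, 0.45 and 1.00. The choroid plexus product Ttr, which is very abundant there, was at 0, 0.454, 0, 1.66 and 0.0913 CPM in SHRs and 0.0982, 32.0, 0.887, 0.565 and 12.9 CPM in WKY rats. It was highest in WKY replicates 2 and 5, the opposite direction to Sostdc1 and Kl. Of 12 neuronal markers 0 passed, with sums of 12354 to 13462 CPM in SHRs and 10879.6 to 14753 CPM in WKY rats, and of 6 serotonin neuron markers 0. The part of these cell classes in the differences of other genes was not tested.

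Within the 5 WKY rats, the 3 libraries ending in 2 differed from the 2 ending in 1 in 403 genes (3.01%), 204 higher and 199 lower at an adjusted p under 0.05. The count was 222 and 3 without WKY replicate 1 or 2, and 73, 48 and 117 without WKY replicate 3, 4 or 5. Genes of the cytosolic ribosome moved together in this comparison, with a median difference of -0.43 over 75 genes. Between strains their median was 0.23 with all WKY libraries and 0.01 with the number-1 libraries. Rplp0, a protein of the ribosomal stalk, was at 186, 171, 204, 168 and 155 CPM in SHRs and 151, 186, 100.3, 92.7 and 104 CPM in WKY rats (0.48 ± 0.14). The number-1 WKY libraries lay within or near the SHR range and the number-2 libraries below it. Rpl30 (1.15 ± 0.22) and Rpsa (0.58 ± 0.16) also passed, and of the 3 only Rpl30 did so against the number-1 libraries (1.75, adjusted p = 4.15e-05). What the number stands for is not known here, and for genes that moved with it strain and number cannot be told apart with all libraries.

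The strain difference at 8 wk was then set against the mean strain difference of the 4 later ages, by an interaction contrast in the same model. Of 13408 genes 88 (0.656%) passed, 33 with a more positive and 55 with a more negative difference at 8 wk. For all 88 the difference between the 2 kinds of WKY library had the opposite sign to the age effect. Both contrasts use the number-2 WKY libraries. Their median strain difference at 8 wk was -0.42 with all WKY libraries and -0.09 with the number-1 libraries, and 6 of the 88 passed the 8 wk comparison without the number-2 WKY libraries. When those libraries were left out, or the number was a term, the count of genes that differed between ages was 0, with 307 and 504 genes at an unadjusted p under 0.05 against 2741 in the full model, and by DESeq2 on all libraries it was 527. The count was also 0 without any single one of WKY replicates 3, 4 and 5 or SHR replicates 1, 2 and 3, and it was 55 and 607 without SHR replicate 4 or 5 and 797 and 1257 without WKY replicate 1 or 2. Genes with such a difference were Oxa1l (0.46 ± 0.09), Gpr137 (0.64 ± 0.13), Pcp4l1 (0.60 ± 0.13), Ptpa (0.42 ± 0.10) and AABR07027407.1 (0.94 ± 0.20) on the positive side, and Zfp706 (-0.73 ± 0.14), Cbfb (-1.13 ± 0.23), Mfsd14a (-1.17 ± 0.25), Rab31 (-0.54 ± 0.12) and Pp2d1 (-1.84 ± 0.39) on the negative side. Slc35c2, a sugar transporter homolog, was one of the 6 that passed without the number-2 WKY libraries: it was at 75.0, 70.6, 62.4, 63.6 and 60.1 CPM in SHRs and 36.6, 35.8, 29.1, 29.0 and 32.8 CPM in WKY rats (1.02 ± 0.10 at 8 wk), and at 0.44, 0.52, 0.58 and 0.52 at the later ages. The other 5 were Crot, Eno1, Cldn11, AABR07052523.1 and AABR07027407.1.

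At 8 wk the NTS and the RVLM of the same rats gave 168 (1.22%) and 220 (1.64%) called genes. Of the 189 called in the CVLM, 114 were called with the same sign in the NTS (60.3% of the 189, 67.9% of the 168) and 124 in the RVLM (65.6% of the 189, 56.4% of the 220). The 3 regions come from the same rats, so these calls are not independent repeats. A test of the difference itself, with the rat as a block, found 6 of 13116 genes (0.0457%) between CVLM and NTS and 8 (0.061%) between CVLM and RVLM. With the libraries of 8 wk alone these counts were 3 and 2.

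Igfbp5 had the largest difference between CVLM and NTS. In the CVLM it was at 89.6 ± 15.9 CPM in SHRs and 20.4 ± 3.49 in WKY rats, and in the NTS at 20.3 ± 11.1 and 56.3 ± 38.3 CPM, so that the strain difference was 2.13 in the CVLM and -1.47 in the NTS (difference 3.47 ± 0.52, adjusted p = 2.84e-05). In the NTS the WKY values were widely spread, and the strain difference there did not pass (adjusted p = 0.084). Aldh1a1, a retinaldehyde dehydrogenase, was at 124 ± 13 CPM in SHRs and 191 ± 38.0 in WKY rats in the CVLM and at 111 ± 13.3 and 68.0 ± 19.5 CPM in the NTS, with strain differences of -0.62 and 0.71 (difference -1.34 ± 0.17, adjusted p = 1.52e-07). It also differed between the kinds of WKY library (0.49, adjusted p = 0.035), and its CVLM value was -0.27 against the number-1 libraries. Pbx3 was lower in SHRs in both regions, by more in the CVLM (-1.66 against -0.89, adjusted p of the difference = 0.0047). Pkp1, a desmosomal plakophilin, was higher in both (4.92 against 2.40). For 2 genes the strain difference did not pass in the CVLM. Terf2ip was at -0.16 in the CVLM (adjusted p = 0.15) and -0.71 in the NTS (difference 0.54 ± 0.11). Vxn was at -0.13 in the CVLM (adjusted p = 0.34) and 0.34 in the NTS (difference -0.49 ± 0.11).

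Against the RVLM, Retsat, the retinol saturase, was lower in SHRs in both regions and by more in the CVLM (-1.36 against -0.69, difference -0.67 ± 0.11, adjusted p = 0.0014). C1r was lower in the CVLM (-0.86) and at 0.32 in the RVLM (difference -1.18 ± 0.22, adjusted p = 0.0045). The laminin subunit Lamb3 was at 1.16 in the CVLM and -0.84 in the RVLM (difference 1.96 ± 0.38). Pbld1 was higher in SHRs in both, by more in the CVLM (2.65 against 1.52). Nov, a secreted matricellular protein, was at -0.08 in the CVLM (adjusted p = 0.91) and 1.89 in the RVLM (difference -1.95 ± 0.42). Taf12 was at -0.13 in the CVLM (adjusted p = 0.40) and 0.52 in the RVLM (difference -0.65 ± 0.13). LOC363337 was lower in SHRs in both, by less in the CVLM (-1.05 against -2.85, difference 1.82 ± 0.39). The monocarboxylate carrier Slc16a6 was at 0.86 in the CVLM and -0.23 in the RVLM (difference 1.09 ± 0.24).

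The called genes were placed on the RefSeq gene order of GRCr8 by symbol, which located 151 of them. Neighbours were taken among the 11993 tested genes placed in this way, so genes not tested or not placed were skipped. Of the 151 called genes, 12 (7.95%) had another called gene as such a neighbour. Among placed genes that were tested and not called, 2.42% had a called neighbour. In this order there were 0 runs of 3 or more called genes.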

How the data were processed

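Processed files were used as the authors deposited them: per the labels and the study's methods, paired-end reads were mapped to rat build rn6 and summarised per gene by RSEM with STAR. The deposited unit is expected counts. The methods also name a batch adjustment by ComBat_seq, and whether the deposited expected counts carry it is not given in the sources used here; 4.95% of CVLM values were not whole. Expected counts were rounded. Genes with a largest rlog value of at least 3.5 over the 46 CVLM libraries were kept (13408 of 32883).

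Strains were compared with edgeR 4.0.16 in R 4.3.3 (TMM, quasi-likelihood test) over the 10 groups of strain and age, which share 1 estimate of the spread. Counts per 1000000 (CPM) use TMM-scaled library sizes. Age effects were contrasts of the same model. Region effects were fitted over the libraries of all regions and ages with the rat as a block (13116 genes). DESeq2 1.42.0 and limma 3.58.1 served as alternatives, as did other filters, scalings and sets of libraries. The tests were checked on simulated data. Two-sided tests were used throughout.

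Replicates are different rats of one strain, age and region as the labels give them, and no 2 libraries of the comparison were alike within sampling noise. Depth was 5904570 to 14425223 counts a library. Intervals on ratios of counts are exact at 95% and cover counting error only.

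The comparison, the gene lists and the tests were chosen with earlier results of these data known. Named genes are the 12 highest and 12 lowest log2 fold changes among called genes that have a gene name and average 50 or more counts over the 10 libraries, the 3 highest and 3 lowest with only a clone or locus identifier, genes that the study names for this region, up to 4 members of each list by adjusted p, and up to 6 genes a direction or region in the tests of differences. Sod1, Sod2, Gad2, Slc32a1, Ifit2, Ifit3, RT1-CE4, RT1-CE7, Snx22 and others named as counts of 5 or fewer were chosen after their values were seen. Promoters were read from RefSeq tables of GRCr8, and no gene coordinates of rn6 were used.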

Additional observations from a re-analysis of the deposited data

Results flagged for a closer look

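A library stood far from the other 4 of its strain in 13 of 246 groups of 5 libraries looked at, each in a different gene. A library was flagged when its gap to the nearest value was a large part of the range of the 5 values. The cut is set for about 1 group in 20 when values are independent and normally distributed. These were CPM values, some near 0, and some of the genes were chosen after their values were seen. The share that chance gives here was not tested. In WKY replicate 1, Cplx2 was at 279 CPM with the other WKY rats at 141 to 173, and Psmb8 was low at 4.03 CPM. In WKY replicate 2, Aif1l was high at 61.4 CPM, Tagln at 20.7 CPM and RT1-A1 at 33.1 CPM, and Slc17a6 was low at 201 CPM. Vip was at 11.2 CPM in WKY replicate 4, and the Cfb copy ENSRNOG00000000419 was at 1.43 CPM in WKY replicate 5 and 0 in the others. Among SHRs, replicate 1 was low in Slc32a1 at 2.65 CPM and Rab31 at 75.5 CPM and high in Hba-a3 at 0.126 CPM, where the others were at 0. SHR replicate 4 was high in Ttr at 1.66 CPM and was at 0 for the Ndufa10l1 row ENSRNOG00000062245.

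The strain difference at 8 wk differed from the mean of the later ages in the following named genes, as a tested contrast on the log2 scale. It was more negative at 8 wk in Gad1 (-0.66 ± 0.16, adjusted p = 0.050), Zfp706 (-0.73), Cbfb (-1.13), Pp2d1 (-1.84), Mfsd14a (-1.17), Rab31 (-0.54) and Aldh1a1 (-0.56). It was more positive in Agt (0.60 ± 0.15, adjusted p = 0.050), Pcp4l1 (0.60), Oxa1l (0.46), Ptpa (0.42), Gpr137 (0.64), Slc35c2 (0.51), Cldn11 (0.59), AABR07052523.1 (0.68) and AABR07027407.1 (0.94). The contrast passed for 0 of these genes without the number-2 WKY libraries.

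The strain difference differed between CVLM and NTS in Igfbp5 (3.47), Aldh1a1 (-1.34), Pkp1 (2.54), Terf2ip (0.54), Pbx3 (-0.80) and Vxn (-0.49). Between CVLM and RVLM it differed in Retsat (-0.67), C1r (-1.18), Lamb3 (1.96), Taf12 (-0.65), Pbld1 (1.14), Nov (-1.95), LOC363337 (1.82) and Slc16a6 (1.09).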

How the results depend on the processing

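The 189 called genes became 190 to 215 with DESeq2, other size factors or other filters, 140 with the number as a term, 129 with the 8 wk libraries alone, 102 without the number-2 WKY libraries, 58 at a log2 fold change above 2, and 157 to 239 with 1 rat left out. The 1025 genes with an adjusted p under 0.05 became 279 with the 8 wk libraries alone, 367 with the number as a term, 195 without the number-2 WKY libraries, 635 without the 2 libraries of conflicting age, and 562 to 1670 with 1 rat left out. The 88 genes that differed from the other ages became 154 when 10 wk was left out, 527 with DESeq2, 19 with no filter, 54 with filterByExpr, and 0 with the number as a term, without the number-2 WKY libraries, or without the libraries of conflicting age (504, 307 and 2697 genes at an unadjusted p under 0.05). With 1 rat left out they ranged from 0 to 1257. The 403 genes that differed between the numbers within WKY ranged from 3 to 222 with 1 rat left out. Settings that left out libraries hold fewer rats, and for the others the cause was not tested.

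The 8 genes that differed between CVLM and RVLM became 2 with the 8 wk libraries alone, and 2 there without the number-2 WKY libraries. With 1 rat left out of that fit they were 0 to 7. The 6 between CVLM and NTS became 3, 2, and 1 to 4. These fits with rats left out were chosen after seeing the data, in place of the same in the libraries of all ages, which was not run. By limma the counts were 9 and 7. The share of called genes seen again at a later age was 77.8%, and 85.7% when an adjusted p under 0.05 with the same sign was enough.

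The replicate numbers do not mark shared rats, and same-numbered rats correlated in their deviations at 0.55, 0.27, 0.26, -0.07 and 0.39 for replicates 1 to 5. The WKY replicates 1, 2, 3 and 5 correlated best with the SHR of the same replicate number and replicate 4 with SHR replicate 5. With a replicate block there were 199 called genes, 1217 with an adjusted p under 0.05 and 0 that differed from the other ages (2087 at an unadjusted p under 0.05). With a replicate block within each age, added after seeing the data, these counts were 209, 1512 and 441.

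Of the 107 named genes that passed the test, 54 kept their sign but did not pass without the number-2 WKY libraries, 42 with the number as a term, 44 with the 8 wk libraries alone, 27 without the libraries of conflicting age and 0 with DESeq2. Atp6ap2 changed sign without the number-2 WKY libraries, to 0.055. Depth limits Ifit1, Cfb, Hba-a3, RT1-DOb and RT1-Db1, which had few or 0 counts in 1 strain.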
